A study of Homo sapiens with 8 samples.

Results

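Transcripts of the S100 calcium-binding proteins were followed in 786-O, a human line derived from a renal carcinoma that lacks working VHL. The cells had been kept for 6 h with pentamidine at 25 μM, or with the vehicle, DMSO. The 10 genes were taken by name as the family of S100B, a protein that pentamidine is reported to bind: S100B, S100A1, S100A2, S100A3, S100A4, S100A6, S100A10, S100A11, S100A13 and S100P. They are 10 of the 17014 genes with a symbol on the arrays. Every probe set that the platform annotation gives to 1 of these genes was used, 11 on the first of 2 Affymetrix array types, covering all 10 genes, and 2 on the second, for S100A6 and S100A10. None was shared with another gene symbol. Each array type carried 2 pentamidine and 2 DMSO arrays, which the labels call biological duplicates. All cells were of this 1 line, grown in the same medium, and pentamidine was tested at 1 dose and 1 time.

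S100 proteins are small dimers that bind calcium through a pair of EF-hands, open a surface on binding, and there attach to other proteins. They have no enzyme activity of their own, so each is known by its partners, among them annexins, myosin and cytoskeletal proteins, and several act outside the cell as well. Pentamidine, an aromatic diamidine used against protozoa and Pneumocystis, is reported to sit in the partner-binding surface of the S100B protein, and it is also a ligand of DNA, in narrow grooves rich in A and T. The arrays measured transcripts only.

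No S100 transcript passed the test on either array type, at an adjusted p of 0.05: limma called 0 of 9 tested S100 probe sets on the first, against 0% of all tested there, and 0 of 2 on the second, also against 0%. The 5 S100 probe sets above the median level of the first type, those of S100A2, S100A6, S100A10, S100A11 and S100A13, had group means between 0.905-fold and 1.18-fold of DMSO. S100A1 had the largest difference among the S100 probe sets tested on the first type, 1.63-fold above DMSO on the scale of intensity + 16, at a low intensity. On the second type S100A10 was 1.72-fold above DMSO, with the DMSO arrays far apart. S100B, the reported protein target, had a mean under the limit set for testing.

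Between arrays of the first type, log2 values of the tested probe sets had correlations of 0.971 to 0.984, and on the second type 0.820 to 0.859, so no pair of arrays was identical. All 7 renal carcinoma line markers on the first type, among them PAX8, VIM, CD70, KRT8 and EGLN3, were above the limit on low values. That limit, the 30th percentile, let through 15550 of 22215 probe sets of the type, so passing it does not show presence. EGLN3 was below the median level of the tested probe sets there. Of the markers of melanocytes, Schwann cells and astrocytes, the cells best known for S100B, 2 of 7 were above the limit, MITF and PMEL. SOX10, MLANA, TYR, GFAP and AQP4 were not. PMEL measured 2.62 and 43.6 units in pentamidine, against 34.9 and 23.5 units in DMSO. All 7 together, each by its brightest probe set, summed to 282 to 327 units in pentamidine and 224 to 337 units in DMSO. On the second type, with 3 of these genes, the sums were 1059 and 913 units in pentamidine and 1421 and 1193 units in DMSO. Both pentamidine sums were below both DMSO sums there, mainly by MITF, at a log2 fold change of -0.39 (95% interval -1.26 to 0.48), and by AQP4, which was under the limit. MITF on the first type had 0.078 (95% interval -0.72 to 0.88), with overlapping groups. Of the myeloid markers, for cells best known for S100A8 and S100A9, 2 of 6 were above the limit, CD68 and CSF1R, with sums over all 6 of 74.2 and 107 units in pentamidine and 99.2 and 103 units in DMSO. In a bulk sample, fewer cells with a transcript and less of it per cell cannot be told apart.

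**Figure D1:**
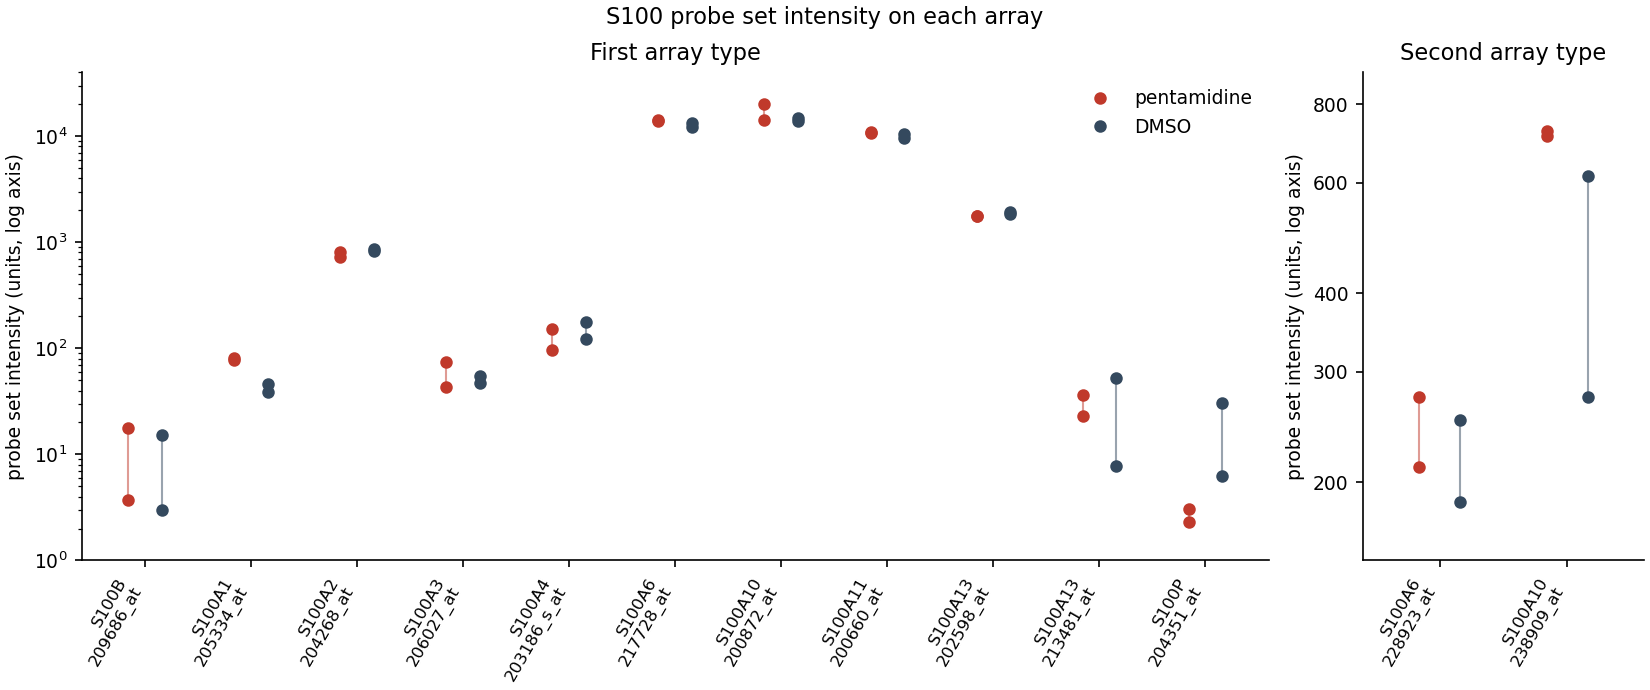
Intensity of each S100 probe set on each array, in units on log axes that differ between the array types. Points are arrays, pentamidine left of DMSO, and a line joins the 2 arrays of a group. The groups sit almost level for S100A2, S100A6, S100A11 and the bright S100A13 probe set, while the 2 arrays of either group lie far apart for S100B, and the DMSO arrays do for S100P.

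S100B is best known from astrocytes, Schwann cells and melanocytes. Its probe set 209686_at measured 3.75 and 17.7 units in pentamidine, against 15.1 and 2.96 units in DMSO. Each group held 1 array near 3 units and 1 above 15 units, and the groups overlapped. The mean was under the 30th percentile of the table, which lay at 18.3 units, so S100B was not tested. Its log2 fold change was 0.085, with a 95% interval of -0.88 to 1.05 in a limma fit without that limit and with a variance trend. As a fold of intensity + 16 that interval ran from 0.543 to 2.07. Leaving out single arrays moved the log2 value between -0.30 and 0.47.

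S100A1 is known from heart and skeletal muscle, where it binds calcium-handling proteins such as the ryanodine receptor. Probe set 205334_at measured 77.8 and 80.4 units in pentamidine, against 46.4 and 38.8 units in DMSO. Both pentamidine arrays lay above both DMSO arrays, and the groups were farther apart than the 2 arrays of either group. The log2 fold change of intensity + 16 was 0.70 (95% interval 0.27 to 1.13, n = 2 per group), at an unadjusted p of 0.00993 and an adjusted p of 0.926 by limma. In that fit 0.926 was the smallest adjusted p of any probe set tested on the first type. With a variance trend, which gives dim probe sets a wider prior variance, the interval was -0.065 to 1.47 and the adjusted p 0.888. The difference stayed between 0.61 and 0.80 when any 1 array was left out, and it was 0.43 with an offset of 64 in place of 16. Among the S100 probe sets tested on the first type, S100A1 was the 1 of 9 with an unadjusted p under 0.05, against 4.8% of all 15550 probe sets tested. With the variance trend it was 0 of 9, against 5.13%.

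The gene order gives S100A1 a close neighbour. In RefSeq for assembly GRCh38.p14, S100A1 lies inside the span of S100A13, on the opposite strand. S100A13 takes part in the release of fibroblast growth factor 1, which has no signal peptide. Its probe set 202598_at measured 1761 and 1755 units in pentamidine, against 1923 and 1856 units in DMSO. The arrays of a group were almost equal and the groups did not overlap, but the difference was small, -0.10 on the log2 scale (95% interval -0.50 to 0.30; limma, adjusted p = 0.942). A dim second probe set, 213481_at, gave 35.9 and 23.2 units in pentamidine, against 7.73 and 52.7 units in DMSO. There the DMSO arrays enclosed both pentamidine arrays, and the log2 fold change of 0.16 went to -0.61 without DMSO array 1 and to 0.93 without DMSO array 2.

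The 250 bases before 3 annotated starts are shown, from RefSeq, GRCh38.p14: S100A1, which had the largest tested S100 difference on the first type, the S100A13 start closest to it on the other strand that holds both an AATT and a TATAAA, and S100A10, which was measured on both array types. AATT is a short site of the kind that pentamidine binds in DNA, TATAAA is the TATA box, and GGGCGG is the GC box. Each was searched on both strands, and matches are in capitals.
S100A1, chr1:153628184-153628433, plus strand: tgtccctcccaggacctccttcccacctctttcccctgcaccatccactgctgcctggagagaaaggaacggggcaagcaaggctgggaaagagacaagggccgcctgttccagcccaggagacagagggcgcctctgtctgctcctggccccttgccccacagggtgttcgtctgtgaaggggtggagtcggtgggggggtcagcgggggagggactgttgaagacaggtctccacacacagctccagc
S100A13, chr1:153627506-153627755, minus strand: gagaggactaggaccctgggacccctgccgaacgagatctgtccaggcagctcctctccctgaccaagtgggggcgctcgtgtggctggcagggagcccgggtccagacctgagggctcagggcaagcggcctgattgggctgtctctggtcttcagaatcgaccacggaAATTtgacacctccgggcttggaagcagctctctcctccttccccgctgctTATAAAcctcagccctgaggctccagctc
S100A10, chr1:151993860-151994109, minus strand: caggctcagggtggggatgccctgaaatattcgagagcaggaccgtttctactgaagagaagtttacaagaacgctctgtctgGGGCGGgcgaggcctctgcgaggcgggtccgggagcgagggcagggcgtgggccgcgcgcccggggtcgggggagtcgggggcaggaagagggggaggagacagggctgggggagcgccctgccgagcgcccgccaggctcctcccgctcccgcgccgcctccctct
The S100A1 window held none of the 3 motifs. The S100A13 window held AATT beginning 80 bases and TATAAA beginning 29 bases before the start, and the S100A10 window 1 GGGCGG. No matches overlapped. Starts of 9 of the 10 genes were in the table, 12 in all, and AATT stood before 3 of them, against 43.0% of 35116 starts of all genes. TATAAA stood before 3 of 12, against 10.7%, and GGGCGG before 5 of 12, against 42.6%. A and T made up 28.8% to 44.4% of the S100 windows, where the median over all starts was 42%.

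S100A10, also called p11, is the family member that holds the open shape without calcium, and it joins annexin A2 in a complex at the plasma membrane. Probe set 200872_at measured 20202 and 14342 units in pentamidine, against 14934 and 13926 units in DMSO. Pentamidine array 1 was the high one, and the other pentamidine array lay between the DMSO arrays. The log2 fold change came to 0.24 (limma, adjusted p = 0.929), its 95% interval reached from -0.36 to 0.84, and without pentamidine array 1 the value was -0.0080. That array was also the highest over the brightest 2% of all probe sets, with a median log2 deviation of 0.11, against -0.011 for the other pentamidine array and -0.036 and -0.070 for the DMSO arrays. After quantile normalization the S100A10 value was 0.056.

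On the second array type S100A10 had another probe set, 238909_at, with 713 and 726 units in pentamidine, against 273 and 616 units in DMSO. Both pentamidine arrays were above both DMSO arrays, but the DMSO arrays differed from each other by more than the groups did. The log2 fold change was 0.78 and its 95% interval -0.67 to 2.23, at a limma adjusted p of 0.959. The variance trend gave -0.048 to 1.62 and an adjusted p of 0.902. The fold change was 0.22 on the log2 scale without DMSO array 1 and 1.35 without DMSO array 2. A difference of at least 1.5-fold was common on this type, seen in 36.6% of its 15804 tested probe sets, and 17.4% of them had both pentamidine arrays above both DMSO arrays. The 3' to 5' intensity ratio of the ACTB control, a measure of RNA quality, was 1.23 and 1.21 in pentamidine, against 1.47 and 1.27 in DMSO. That of the GAPDH control was 0.716 and 0.677 in pentamidine, against 0.843 and 0.806 in DMSO. Both ratios were lower in both pentamidine arrays than in either DMSO array. Their part in the S100A10 value was not tested.

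S100A6, or calcyclin, binds the ubiquitin ligase component CACYBP and annexins and is common in dividing cells. Probe set 217728_at measured 13792 and 14082 units in pentamidine, against 12247 and 13168 units in DMSO. The groups did not overlap, and their difference was 0.13 on the log2 scale (95% interval -0.28 to 0.54; limma, adjusted p = 0.932). Quantile normalization took it to 0.0082. Its probe set on the second type, 228923_at, measured 211 and 273 units in pentamidine, against 252 and 186 units in DMSO. These groups overlapped, and the log2 fold change of 0.14 had an interval of -0.86 to 1.14.

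S100A11, a partner of annexin A1, measured 10935 and 10676 units in pentamidine, against 10579 and 9577 units in DMSO, by probe set 200660_at. The pentamidine arrays lay just above the DMSO arrays, and the difference of 0.10 on the log2 scale (95% interval -0.32 to 0.52; limma, adjusted p = 0.943) was smaller than the difference between the DMSO arrays, 0.14. A probe set annotated to the pseudogene S100A11P1, 208540_x_at, measured 8441 and 6277 units in pentamidine, against 9457 and 6922 units in DMSO, a log2 fold change of -0.15 (95% interval -0.84 to 0.53). It was named after its values were seen. Signal of the gene and of its processed copies may not be separable by these probes, so both are given as uncertain.

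S100A2 is an epithelial and mainly nuclear S100 protein. Its probe set 204268_at measured 804 and 722 units in pentamidine, against 826 and 860 units in DMSO. Both pentamidine arrays lay below both DMSO arrays, with a difference of -0.14 on the log2 scale (95% interval -0.57 to 0.28; limma, adjusted p = 0.930), and the pentamidine arrays differed from each other by 0.15.

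S100A4, known as metastasin, binds non-muscle myosin IIA and is tied to cell motility. Probe set 203186_s_at measured 95.5 and 153 units in pentamidine, against 122 and 177 units in DMSO. In both groups array 2 was the higher, and the groups overlapped, and the log2 difference of -0.25 (95% interval -1.05 to 0.55; limma, adjusted p = 0.932) was 0.050 without pentamidine array 1. S100A3, a cysteine-rich protein of the hair cuticle, measured 74.0 and 43.6 units in pentamidine, against 47.2 and 55.3 units in DMSO. The pentamidine arrays enclosed the DMSO arrays, and the log2 fold change of 0.13 (95% interval -0.56 to 0.81) went to -0.17 without pentamidine array 1.

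S100P, first found in placenta, binds the membrane linker ezrin. Probe set 204351_at measured 3.04 and 2.29 units in pentamidine, against 30.5 and 6.23 units in DMSO. Both pentamidine arrays lay below both DMSO arrays, but the mean was under the limit for testing and DMSO array 1 alone was above 7 units. The log2 fold change was -0.78 with an interval of -1.75 to 0.18 (no limit, variance trend), and -0.25 without DMSO array 1. With an offset of 1 it was -2.05 and with 64 it was -0.29, so its size rests on the offset.

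**Figure D2:**
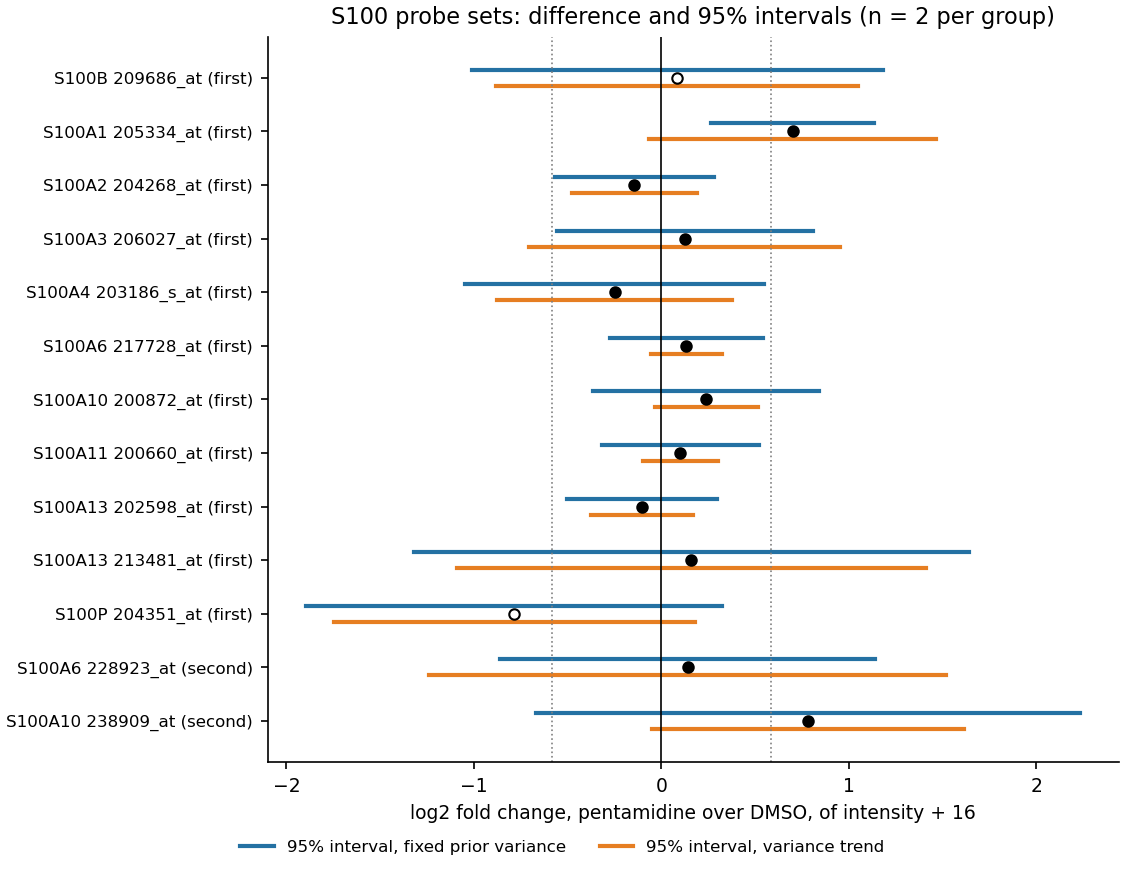
Log2 fold change of each S100 probe set (points, open where it was under the limit for testing) with 95% intervals from limma with a fixed prior variance (upper bar) and with a variance trend (lower bar), n = 2 per group. Dotted lines mark 1.5-fold; all 13 trend intervals reach 0, and those of 5 bright probe sets of the first type stay inside 1.5-fold.

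Set side by side, 6 of the 9 S100 probe sets tested on the first type had a positive log2 fold change, where 53.9% of all tested probe sets were positive. Their median was 0.13, against 0.024 over all tested probe sets. With S100B and S100P included it was 7 of 11 and a median of 0.10, against 55.2% and 0.035 over all probe sets, and the median of the 11 was 0.011 after quantile normalization. The limma adjusted p values of the 9 tested ran from 0.926 to 0.969, and 0.926 was also the smallest over all probe sets tested on that type. On the second type 0 of 2 had an unadjusted p under 0.05, against 7.04% of all tested, and 0 with the variance trend, against 5.1%. Calls at the adjusted p were again 0 among the S100 probe sets of both types with the trend, against 0% and 0.00633% of all. The pentamidine and DMSO arrays of the first type did not overlap for 6 of 11 S100 probe sets, against 34.7% of all probe sets. Of these, 3 were higher in pentamidine (S100A1, S100A6 and S100A11), against 20% of all, and 3 lower (S100A2, S100A13 by 202598_at, and S100P), against 14.7%. After quantile normalization the number without overlap was 4, against 33.6% of all probe sets. In 3 of 11, S100A1, S100A6 and S100A13 by 202598_at, the groups differed by more than the 2 arrays of either group, against 21% of all. A difference of at least 1.5-fold was seen in S100A1 and S100P, 2 of 11, against 12.6% of all probe sets.

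For the bright members the data set limits on a change. With limma's variance trend, the 95% interval lay inside a 1.5-fold change in either direction for 5 of the 9 tested S100 probe sets of the first type, and these were the 5 above the median level of 236 units. The same held for 73.0% of all probe sets above that level and for 4.57% of those below it. The interval was -0.099 to 0.30 for S100A11, -0.055 to 0.32 for S100A6, -0.036 to 0.51 for S100A10, -0.48 to 0.19 for S100A2 and -0.38 to 0.17 for S100A13. For S100A11 the limit is on the signal of its probe set, as the gene and its processed copies may not be separable. The probe set annotated to S100A11P1, at -0.84 to 0.53 with the fixed prior variance, was not held inside 1.5-fold. With the fixed prior variance S100A10 was outside 1.5-fold and the other 4 inside. None of the dim S100 probe sets, S100A1, S100A3, S100A4 and S100A13 by 213481_at, was held inside 1.5-fold, nor was either probe set of the second type.

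**Figure D3:**
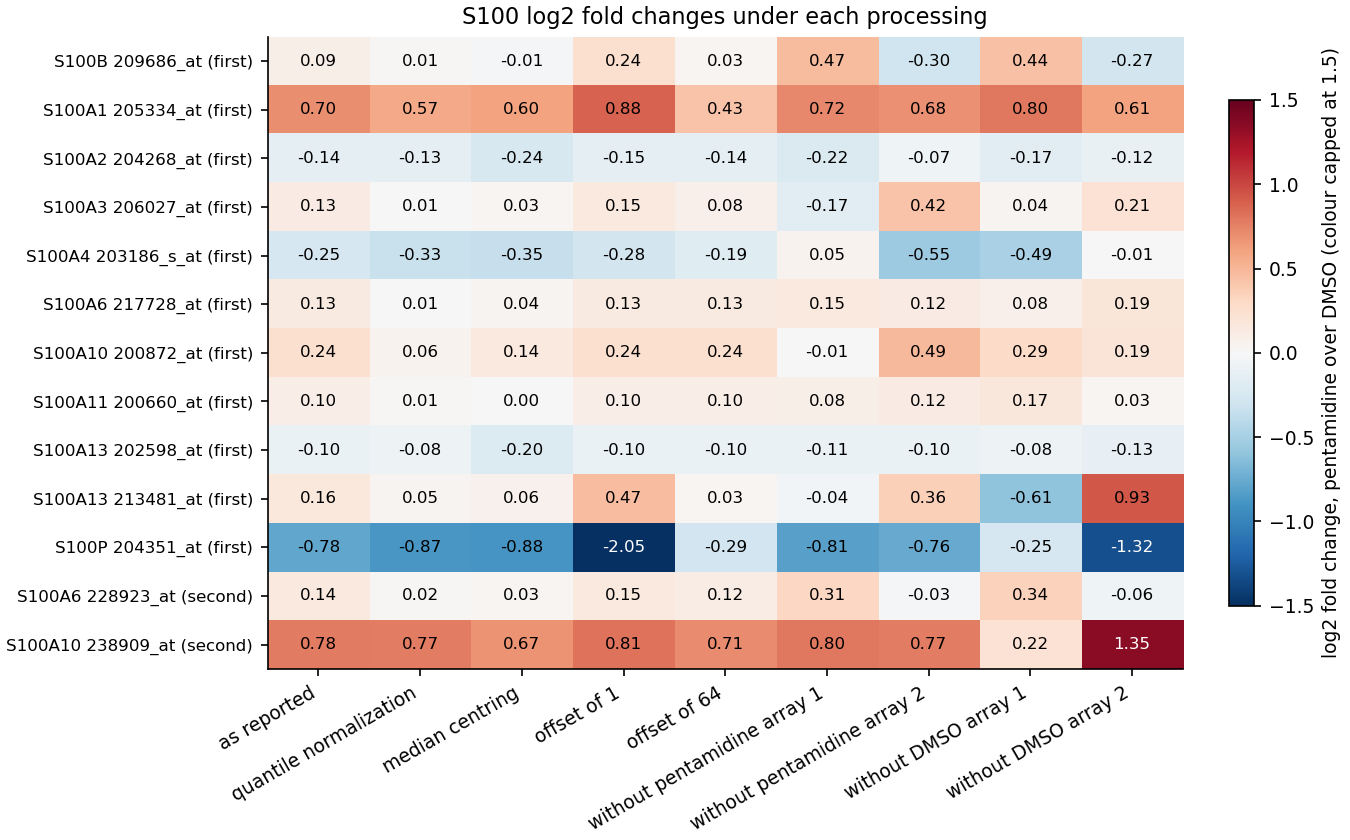
Log2 fold change, pentamidine over DMSO, of each S100 probe set (rows) as reported and under 8 other treatments of the values (columns); colour runs from blue, lower in pentamidine, to red, higher in pentamidine. S100A1 stays between 0.43 and 0.88 in every column, while S100A3, S100A4, S100A10 on the first type and the dim S100A13 probe set change sign when pentamidine array 1 is left out.

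Except for S100B and S100P, these genes lie on chromosome 1 in a region that holds most S100 genes, and neighbours along it had differences of both signs. In the order S100A6, S100A5, S100A4, S100A3 and S100A2, the log2 fold changes on the first type were 0.13, 0.59, -0.25, 0.13 and -0.14. S100A5, which is not among the 10 genes, was dim, with 18.6 and 47.4 units in pentamidine, against 4.86 and 30.4 units in DMSO. Next along the chromosome came S100A16 at 0.11, measured only on the second type, and S100A14 at -0.71. S100A13 followed at -0.10 by its bright probe set and 0.16 by its dim one, then S100A1 at 0.70. S100A10 and S100A11, neighbours at the other end, had 0.24 and 0.10 on the first type, and S100A10 had 0.78 on the second.

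**Figure D4:**
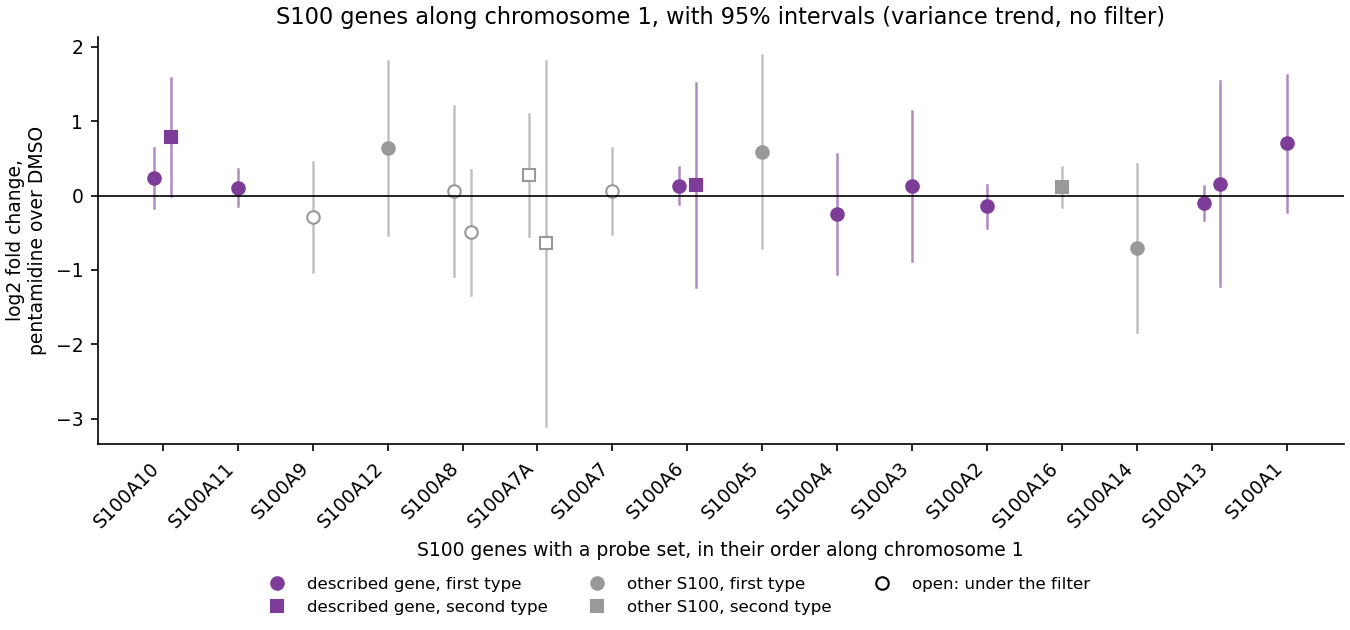
Log2 fold change, pentamidine over DMSO, of S100 genes in their RefSeq order along chromosome 1, with 95% intervals from limma with a variance trend and no limit on low values (n = 2 per group). Circles are the first array type and squares the second, and all intervals reach 0.

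The S100 genes outside the 10 were mostly dim. They were followed in a fixed list that also held S100PBP, a binding protein and not an S100 gene itself. On the first type 4 of 8 in this list, S100PBP among them, were above the limit. Of these, limma called 0 in either direction, against 0% of all tested, with 0 at an unadjusted p under 0.05, against 4.8%. S100A12, a secreted myeloid protein, measured 38.4 and 23.7 units in pentamidine, against 4.43 and 27.5 units in DMSO, and the groups overlapped. S100A14, an epithelial member, measured 7.99 and 31.2 units in pentamidine, against 35.7 and 42.4 units in DMSO. Its groups did not overlap, and its log2 fold change of -0.71 had an interval of -1.68 to 0.27. S100PBP, which binds S100P, had log2 fold changes of 0.025 (first type) and 0.14 (second type). S100A7, S100A8, S100A9 and S100G were under the limit, as was S100A7A on the second type. On the second type S100A16, a widely expressed member, measured 18060 and 15447 units in pentamidine, against 16127 and 14772 units in DMSO. Those groups overlapped, with a log2 fold change of 0.11 (95% interval -0.15 to 0.38 with a variance trend).

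Annexins bind membranes when calcium rises, and several are held in pairs by S100 dimers. On the first type limma called 0 of 7 annexin genes (1 at an unadjusted p under 0.05, ANXA11, against 4.8% of all tested), of which 5 had a positive log2 fold change and 2 a negative one, with a median of 0.052. ANXA2, the partner of S100A10, measured 17045 and 15105 units in pentamidine, against 12924 and 14157 units in DMSO, by probe set 201590_x_at. Both pentamidine arrays were above both DMSO arrays, with log2 fold changes of 0.25, 0.17 and 0.19 by its 3 probe sets and 0.088, 0.0023 and 0.047 after quantile normalization. The variance trend gave the 3 probe sets intervals of 0.045 to 0.45, -0.018 to 0.37 and 0.0082 to 0.38. ANXA11, reported to bind S100A6, measured 1533 and 1424 units in pentamidine, against 2134 and 2096 units in DMSO, by probe set 206200_s_at. The groups were clearly apart, by -0.51 on the log2 scale. The 95% interval was -0.92 to -0.10, and -0.79 to -0.24 under the variance trend, but the limma adjusted p was 0.926 and 0.888 with the trend. Its other probe set on that type gave -0.056, and the one on the second type 0.20. ANXA5 and ANXA6 had 0.093 and 0.10. On the second type limma called 0 of 3 annexins, against 0% of all tested (0 at an unadjusted p under 0.05, against 7.04%). ANXA1 had 0.72 (95% interval -0.61 to 2.04), ANXA6 0.90 (-2.76 to 4.55) and ANXA11 0.20. The first-type probe set of ANXA1, with 9172 and 8907 units in pentamidine, against 9546 and 8705 units in DMSO, gave -0.012 (95% interval -0.22 to 0.19 with a variance trend).

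Other S100 partners and receptors gave no call either. Of 24 tested on the first type, 14 had a positive and 10 a negative log2 fold change, with a median of 0.071, and limma called 0 (1 at an unadjusted p under 0.05, LRP1, again against 4.8%). LRP1, an endocytic receptor, measured 73.2 and 43.1 units in pentamidine, against 28.0 and 15.9 units in DMSO, by probe set 200785_s_at. All pentamidine values were above the DMSO values, by 0.96 on the log2 scale. The 95% interval was 0.17 to 1.74, and -0.034 to 1.94 under the variance trend, and its other probe set gave 0.99. MDM2, TLR4 and AHNAK, a giant scaffold that binds the S100A10 and annexin A2 complex, had 0.51, 0.40 and 0.26. On the second type limma called 0 of 10, against 0% of all tested, and 0 had an unadjusted p under 0.05, against 7.04%. The median was 0.082. TLR4 had -0.50 there, AHNAK 0.55, CTSB 0.19 and KCNK3 -0.41. MDM2 had 0.17, 0.039 and 1.72 by 3 tested probe sets, the last with 314 and 429 units in pentamidine, against 43.3 and 213 units in DMSO, and an interval of -0.55 to 3.98, or 0.096 to 3.34 with a variance trend. CACYBP, the S100A6 partner, had 0.093 by its brightest probe set and -0.12 to 0.031 by the other 3. AGER, the receptor for several S100 proteins outside the cell, was under the limit, with 11.7 units on both pentamidine arrays, against 14.1 and 17.1 units in DMSO.

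Of 19 other EF-hand calcium sensors tested on the first type, 7 had a positive and 12 a negative log2 fold change, with a median of -0.065. Limma called 0, against 0% of all tested. With the fixed prior variance 0 had an unadjusted p under 0.05, against 4.8%. With the variance trend the interval of CALU lay above 0, where 5.13% of all tested had an unadjusted p under 0.05. CALU, a calcium-binding protein of the secretory pathway, measured 7973 and 7095 units in pentamidine, against 4726 and 6724 units in DMSO, a log2 fold change of 0.41. The 95% interval was -0.21 to 1.04, and 0.11 to 0.72 under the variance trend, with limma adjusted p values of 0.926 and 0.888. Its DMSO array 1 was the low one. RCN2 had -0.23, CHP1 -0.28 and CIB1 0.20.

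**Figure D5:**
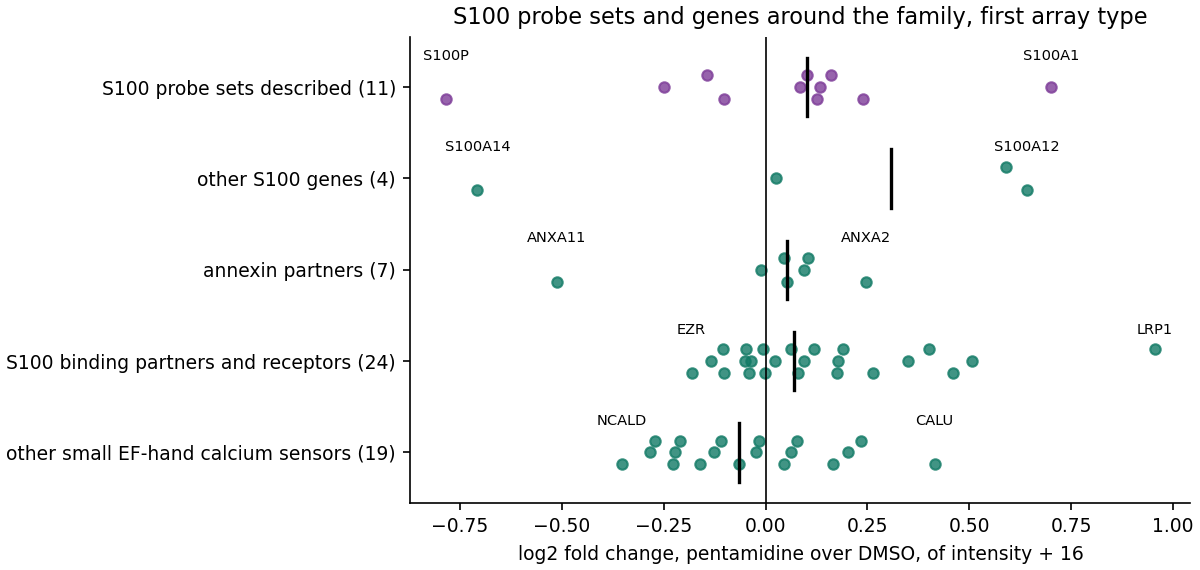
Log2 fold change, pentamidine over DMSO, on the first array type for the 11 S100 probe sets and for the tested genes of 4 lists around the family, a gene by its brightest tested probe set. Points are probe sets, black bars are medians, the outermost genes are named, and every list spreads to both sides of 0. The list of other S100 genes also holds S100PBP, a binding protein.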

How the data were processed

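Biotin-labelled targets made from total RNA were measured on Affymetrix arrays of 2 types, per the labels' protocols. The deposited values are linear intensities of probe sets, and the submitters' processing notes name Affymetrix Expression Console. Which version or algorithm it ran is not given in the sources used here. After 2% of values was trimmed from each end, the deposited intensities averaged 500.2 on the arrays of 1 type and 500.1 on those of the other.

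Genes were named from the platform annotation, with symbols updated by gene ID to RefSeq (GRCh38.p14), which 19713 of 19730 and 13548 of 13588 probe sets with 1 symbol matched. Affymetrix control probe sets (62 and 88) were removed. To each intensity 16 was added before log2, and a probe set was tested if its mean reached the 30th percentile, at 18.3 (first type) and 57.5 units (second type), which left 15550 and 15804. The types were tested apart, as the labels do not say whether both carried the same RNA. The test was limma 3.58.1 (lmFit, eBayes; R 4.3.3) with no block, and p-values were adjusted by Benjamini-Hochberg over all probe sets tested, with a threshold of 0.05. The fits were first tried on simulated data, with changes placed only in probe sets above the median level. That trial did not cover changes in dim probe sets, and its outcome is not given here. Intensities of different probe sets were not compared as transcript amounts. With 2 arrays per group an exact test of a single value cannot reach p = 0.05, so none was made. The number of arrays limits the precision of every value, and p-values measure only the spread between these arrays.

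Alternatives were quantile normalization, median centring, no filter, a 50th percentile filter, offsets of 1 and 64, a variance trend, a replicate block and leaving out each array. A trend without a filter, used for the intervals of S100B and S100P, was added after the data were seen. All probe sets of the 10 genes and every tested gene of the other S100 genes are named. From each further list the rule takes up to 4 tested genes per array type, those with the largest absolute moderated t. CACYBP, AGER, PAX8, marker genes under the limit, further probe sets, and the values on the other array type of ANXA1, MDM2, EFHD2 and CAPN1 were added after their values were seen. The members and lists were chosen with earlier results of these data known, so no count over them is independent support.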

Additional observations from a re-analysis of the deposited data

How the results depend on the processing

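With 2 arrays per group, dim probe sets were resolved only to large changes. No S100 probe set passed under any alternative run, with adjusted p values by limma of 0.562 or more. Deviations of same-numbered arrays correlated at 0.0037 and 0.013 across probe sets. Such a correlation measures a shared pattern over the tested probe sets together, and not a shift common to all of them. It cannot tell whether those cultures were run in parallel. With the replicate block, limma called 0 S100 probe sets on both types, as without it, and S100A1 had an adjusted p of 0.960. The first type's S100 median of 0.10 was 0.011 after quantile normalization, 0.0050 after median centring and 0.031 with an offset of 64, and -0.0080 to 0.12 with each array left out. Median centring shifted all tested probe sets by -0.097 and -0.11, and it left 0 of 2 S100 probe sets of the second type without overlap, against 1. Leaving out an array gave 7 to 10 without overlap on the first type and 1 to 2 on the second, where fewer arrays overlap less often by construction. Among tested S100 probe sets, signs turned with an array left out for S100A3 (-0.17 to 0.42), S100A4 (-0.55 to 0.050), S100A10 on the first type (-0.0080 to 0.49), S100A13 by 213481_at (-0.61 to 0.93) and S100A6 on the second type (-0.062 to 0.34). S100B, not tested, ranged from -0.30 to 0.47 around 0.085 and was -0.012 with median centring. The cause was not tested. Other alternatives turned no tested S100 value.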

Other observations

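Filaggrin, FLG, is a skin barrier protein whose long chain begins with an S100-like EF-hand domain, and its gene lies between S100A11 and S100A9 on chromosome 1. Its probe set on the first type measured 1788 and 1979 units in pentamidine, against 2174 and 1905 units in DMSO. The groups overlapped, with a log2 fold change of -0.11 (95% interval -0.40 to 0.17 with a variance trend). The keratinocyte genes KRT5, KRT1, IVL and LORICRIN were under the limit for testing on the same arrays. KRT14, just above it, measured 25.7 and 27.8 units in pentamidine, against 17.4 and 20.4 units in DMSO. Its groups did not overlap, with a log2 fold change of 0.29 (95% interval -0.12 to 0.71, or -0.84 to 1.43 under the variance trend), and KRT10 measured 1996 and 2092 units in pentamidine, against 2105 and 1708 units in DMSO.

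On the second array type 5 other EF-hand sensors were tested, and limma called 0, against 0% of all tested. With the fixed prior variance 0 had an unadjusted p under 0.05, against 7.04%. With the variance trend the interval of EFHD2 lay below 0, where 5.1% of all tested had an unadjusted p under 0.05. EFHD2, a calcium sensor that binds actin, measured 862 and 780 units in pentamidine, against 1053 and 1574 units in DMSO, a log2 fold change of -0.64. The 95% interval was -1.68 to 0.39, and -1.21 to -0.076 under the variance trend, with limma adjusted p values of 0.940 and 0.902. Its probe set on the first type gave -0.065. CAPN1, the large subunit of a calcium-activated protease, measured 154 and 185 units in pentamidine, against 244 and 296 units in DMSO, a log2 fold change of -0.62 (95% interval -1.53 to 0.29). Its first-type probe set gave 0.062, with 361 and 301 units in pentamidine, against 270 and 368 units in DMSO, and overlapping groups. CALU and NCS1 had 0.30 and 0.062 on the second type.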
